A study of Bos taurus with 27 samples.

Results

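The JAK kinases JAK1, JAK2, JAK3 and TYK2, the transcription factors STAT3, STAT5A and STAT6 and the suppressors SOCS1 and SOCS3 were followed in the rumen epithelium (RE) of fattening cattle. Each gene is read by 1 probe, so these 9 genes make up 9 of the 15008 non-control probes on the array. They were chosen by gene name, with JAK1 included because it had one of the largest falls at the middle fattening stage. Among the 1704 probes that were lower in all 9 animals at the middle than at the early stage and that all 9 arrays of a stage measured above background, the log2 difference was −3.31 for JAK1 and −3.08 for DUOXA2, both among the 3 lowest. WIPI2, just outside these, had −3.01. These values picked JAK1, and they are given as a description with no test.

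JAK kinases sit on the inner ends of cytokine receptors that have no kinase of their own. When a cytokine such as an interferon or an interleukin joins the receptor chains, the kinases phosphorylate each other, the receptor and then STAT proteins, which pair up, enter the nucleus and switch on target genes. SOCS proteins are among those targets and close the loop by blocking the kinases or marking the receptor complex for breakdown. In stratified epithelia the pathway carries interferon, IL6-type and IL10-type signals that bear on defense, proliferation and barrier repair.

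Biopsies came from the same 9 castrated Japanese Black cattle with a rumen fistula, all on concentrate and rice straw. The early stage spans months 10 to 14 of age and was sampled at month 14, the middle stage months 15 to 22, sampled at month 21, and the late stage months 23 to 30, sampled at month 29. All animals received the diet, so age, time on feed and diet change together from stage to stage and cannot be told apart. The 27 RNA samples were each hybridized with cyanine 3 to a customized bovine array of 1 color, 9 arrays a stage. The extraction text in the labels names blood neutrophils and liver while the tissue label names rumen epithelium.

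Of 23 stratified epithelium markers, 21 were well above background on all 9 arrays at the early and late stages and 19 at the middle stage, KRT4 being above it on no array. Of 10 hepatocyte markers, 2 were well above background on all 9 arrays at the early and late stages (APOA1 and TTR), while ALB, FGA and AMBP were so on no array. Of 10 neutrophil markers, 5 were so at the early, 2 at the middle (S100A8 and S100A12) and 4 at the late stage, and ELANE was so on no array. A level below is the log2 processed intensity of a probe minus the median of its array, so levels of different probes cannot be compared. The middle-stage arrays were dimmer. Their median signals were 8.22 to 28.7, against 35.2 to 48.6 at the early and 32.2 to 47 at the late stage, and 48.5% to 71.5% of their probes were well above background, against 68.8% to 78.1% and 68.4% to 73.7%. The late-stage arrays lay on slides and scan days of their own, so the late stage and its slides cannot be told apart. Slide 2 held 7 middle arrays and the early array of animal 9.

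The places of the probes bear on what was measured, and all are on the UMD 3.1 cattle assembly as the scanner files give them. The JAK1 probe lies at chr3:80914220-80914279 on the plus strand, at base 4271 of its transcript, and the JAK2 probe at chr8:39632638-39632697 on the minus strand. The JAK3 probe lies at chr7:5249715-5249774 and the TYK2 probe at chr7:16104678-16104737, the latter at base 4314 of its transcript on the minus strand. The STAT3 probe at chr19:43057415-43057474 and the STAT5A probe at chr19:43054144-43054202 face each other on opposite strands, 3212 bases apart. The STAT6 probe lies at chr5:56667735-56667794, the SOCS1 probe at chr25:9974944-9975003 and the SOCS3 probe at chr19:54459441-54459500. Whether a probe falls in coding sequence or in an untranslated region was not determined here.

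A stretch of 30 bases from each of 2 probes is shown, since the TYK2 probe differs from the others in one feature. Capitals mark a run of alternating T and G of 8 or more bases on the strand of the probe, and the JAK1 stretch has none.
JAK1, bases 1 to 30: atacaaagatgagtgtattcctgtcaacag
TYK2, bases 30 to 59: acttTGTGTGTGTGTGTGTGTGTGTaagca
The run in the TYK2 probe is 21 bases long. In the other 8 probes the longest such run had 2 to 4 bases.

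Across the 9 genes, JAK1, JAK2 and STAT3 were lower at the middle stage and back near or above the early level at the late stage. The STAT5A values were lower at the middle stage too, but none of them was well above background there. That STAT5A dip was absent with normexp background correction. TYK2 overlapped between the early and middle stages and was 3.62-fold lower at the late than at the early stage. STAT6, SOCS1 and SOCS3 had no called difference involving the late stage. A probe was called a differentially expressed gene (DEG) where limma, fitted over all 27 arrays with the animal as a block, gave a Benjamini-Hochberg adjusted *P* below 0.05 over all probes. All 27 arrays measured JAK2, TYK2, STAT3 and SOCS1 well above background, while for JAK3 and SOCS3 no stage had all 9 arrays so. The plot of levels by stage shows all 9 genes in each animal.

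**Figure D1:**
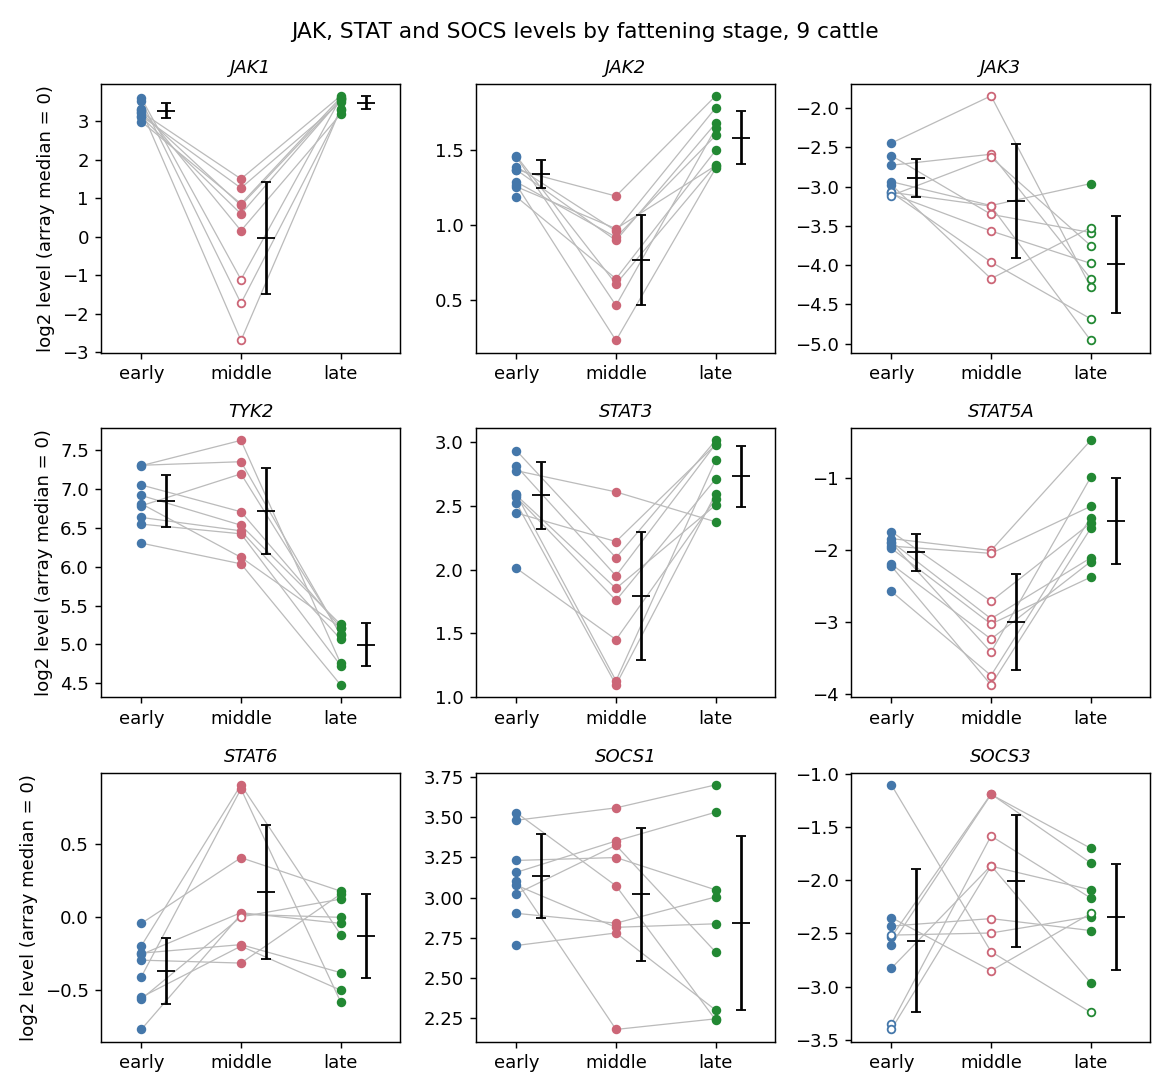
Log2 level relative to the array median (vertical axis, 1 scale per gene) at the early, middle and late stages for the 9 genes. Each point is 1 array, gray lines join the arrays of 1 animal, open points were not well above background, and the bars give mean ± SD over 9 animals. The 9 middle-stage JAK1 points, 3 of them open, lie below all early and late points, and the 9 late TYK2 points lie below all others.

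Between the early and middle stages (first period), 5 of the 9 genes were called, 1 higher and 4 lower, where 66.5% of all probes were called, 45.3% higher and 21.2% lower. This comparison chose JAK1, and nothing is read from the count. Between the middle and late stages (second period), 6 of the 9 were called, 4 higher and 2 lower, beside 71.5% of all probes, 26.7% higher and 44.8% lower. The share of called genes is thus near that of the array as a whole. Between the early and late stages (total period), 2 of the 9 were called, both lower, beside 20.0% of all probes, 10.9% higher and 9.02% lower. The median log2 fold change of the 9 genes was −0.28, −0.18 and 0.20 in the 3 comparisons in that order, and that of all probes was 0.33, −0.28 and 0.03. The comparisons share arrays and are not independent of each other.

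**Figure D2:**
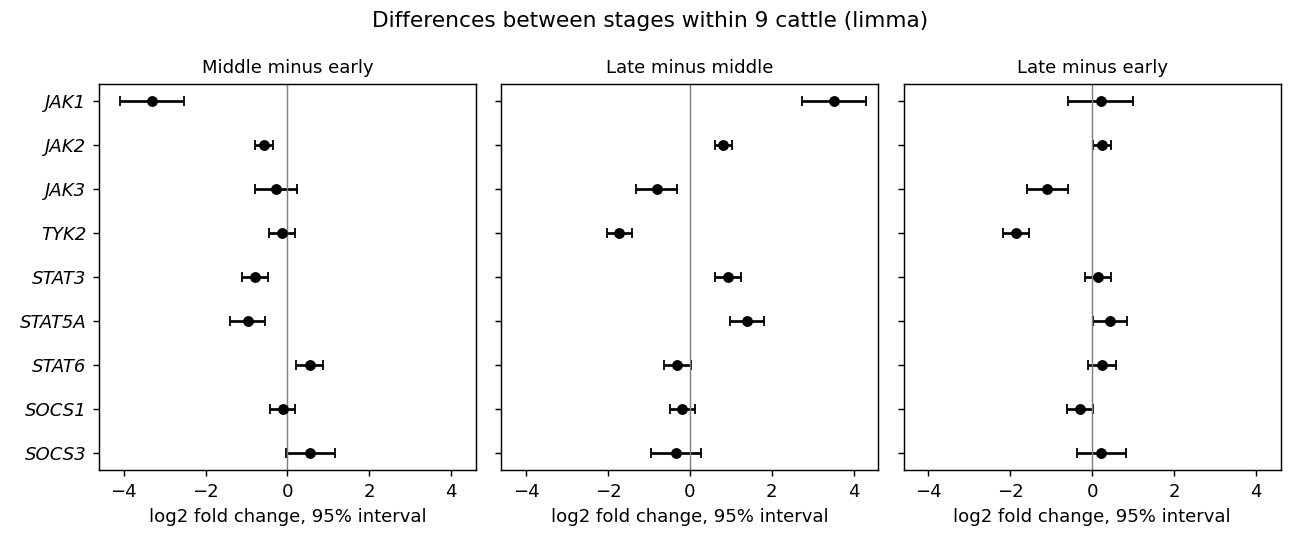
Log2 fold change with its 95% interval from limma (horizontal axis) for the 9 genes in middle minus early, late minus middle and late minus early. Points are the fitted difference within 9 animals, and the first panel and both JAK1 intervals that involve the middle stage are descriptions, since that contrast chose JAK1. JAK3 was well above background on 6 of 27 arrays, so its points have no readable size. STAT5A was so on no middle array, so its points in the first and second panels have none either. In the third panel the TYK2 interval, −2.17 to −1.54, lies below all others but that of JAK3, which overlaps it.

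JAK1 serves most of the receptors for interferons and for the IL6, IL10 and gamma chain cytokine families. The lowest, median and highest levels were 2.99, 3.24 and 3.60 at the early, −2.69, 0.59 and 1.5 at the middle and 3.19, 3.56 and 3.66 at the late stage. The middle-stage levels lay below all others and were far more spread, with an SD of 1.46 against 0.195 and 0.169. The probe was well above background on all 9 early and all 9 late arrays and on 6 of the 9 middle arrays.

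The 6 middle arrays that measured JAK1 lay between 0.16 and 1.5, still below every early and late value. The other 3 came from animals 4, 7 and 8, with levels of −2.69, −1.73 and −1.11 and array medians of 8.22, 16.4 and 17.5. The within-animal difference of middle minus early ran from −5.99 to −1.73, with a mean of −3.31 (SE 0.378, n = 9), and that of late minus middle from 2.16 to 6.02, with a mean of 3.52 (SE 0.378, n = 9). With a fixed slide block the first value was −1.13 (SE 1.58), a fit in which the early array of animal 9 alone ties the slides, and with normexp background correction it was −1.98. The part of array brightness in these values was not tested.

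The late-stage arrays took no part in the choice of JAK1, so late minus early was tested, though it shares the early arrays. The difference was 0.20 (SE 0.378, 95% interval −0.587 to 0.994) with a limma adjusted *P* of 0.775, and JAK1 was higher in 6 of 9 animals. The error of this fit carries the wide spread of the middle arrays. The paired differences alone ran from −0.24 to 0.62 and gave an exact two-sided sign-flip permutation *P* of 0.0859.

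JAK2, the kinase of the growth hormone, erythropoietin and interferon gamma receptors, had a smaller dip of the same shape. Early levels spanned 1.19 to 1.46 around a median of 1.37, middle levels 0.23 to 1.19 around 0.90, and late levels 1.38 to 1.86 around 1.60. Every animal was lower at the middle than at the early stage, by 0.57 on average (SE 0.103), a value given as a description.

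In the second period JAK2 rose in 9 of 9 animals, by 0.82 on the log2 scale (1.76-fold, SE 0.103, 95% interval 0.605 to 1.03, limma adjusted *P* = 1.4e-06). The middle and late levels did not overlap. The exact sign-flip permutation *P* was 0.00391, the smallest that 9 animals allow. Late minus early was 0.24 (95% interval 0.0302 to 0.459), higher in 8 of 9 animals, and missed the threshold with a limma adjusted *P* of 0.102. This call depends on the test, since the adjusted *P* was 0.0131 with the methods' t-test and 0.0295 when limma was fitted to the early and late arrays alone. The size depends on the scaling, since the difference was 0.13 with 75th percentile scaling (limma adjusted *P* = 0.426). With a random slide block the limma adjusted *P* was 0.662.

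JAK3, which works with the gamma chain receptors of lymphocytes, was barely measured in this tissue. It was well above background on 5 early arrays, no middle array and 1 late array. In early biopsies the level lay between −3.11 and −2.44 (median −2.97), in middle biopsies between −4.17 and −1.84 (median −3.25), and in late biopsies between −4.96 and −2.96 (median −3.98). Late minus early was called lower, in 9 of 9 animals, with a limma adjusted *P* of 0.00358, but its size is not read because 8 of the 9 late values were not well above background. That call was lost with normexp background correction (adjusted *P* = 0.388) and with a random slide block (adjusted *P* = 0.153). Late minus middle had a limma adjusted *P* of 0.006, no fold is given because no middle array measured the gene, the call was lost with the methods' t-test (adjusted *P* = 0.0609), and the sign turned with quantile normalization (0.12).

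Leukocyte markers are set beside JAK3, and most were not called between the early and late stages. Of 19 on the array, 6 were called lower and 1 higher at the late than at the early stage, and 12 were not called. Over all probes 9.02% were lower and 10.9% higher. CD4 and ITGAM were above background on no array. The mean level of the 19 markers per array ran from −0.28 to 0.881 at the early, from −0.412 to 0.565 at the middle and from −0.543 to 0.208 at the late stage. The part of leukocytes in the JAK3 values was not tested, and in biopsies fewer cells of a type and less RNA per cell cannot be told apart.

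TYK2, the kinase of the interferon alpha, IL10-type and IL12-type receptors, fell late. In early biopsies the level lay between 6.30 and 7.31 (median 6.81), in middle biopsies between 6.04 and 7.63 (median 6.54), and in late biopsies between 4.48 and 5.26 (median 5.12). The early and middle levels overlapped widely, with a mean difference of −0.13 (SE 0.149), which was −0.68 (SE 0.251) with normexp background correction and −0.78 (SE 0.482) on slide 2 alone. All 9 late levels lay below the lowest early and the lowest middle level.

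In the second period TYK2 fell by 1.72 on the log2 scale (3.30-fold, SE 0.149, limma adjusted *P* = 1.54e-08), in 9 of 9 animals. In the total period it fell by 1.86 (3.62-fold, SE 0.149, 95% interval −2.17 to −1.54, limma adjusted *P* = 5.12e-08), also in 9 of 9, and each exact sign-flip permutation *P* was 0.00391. With normexp background correction the second-period value was −0.92 (limma adjusted *P* = 0.003), a fall of the same direction and smaller size. Late minus early stayed between −2.05 and −1.60 under normexp, quantile and cyclic loess normalization and with a random slide block.

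The genes whose levels followed TYK2 most closely over the 27 arrays were IGFBP4 (Pearson r = 0.989), S1PR2 (0.983) and PBXIP1 (0.977), out of 10203 candidate genes. IGFBP4 encodes a binding protein of insulin-like growth factors, S1PR2 a receptor for sphingosine 1-phosphate, and PBXIP1 a partner of the PBX homeodomain proteins. Within stages, after each stage mean was removed, the values were 0.959, 0.912 and 0.891. The probes of all 3 genes also carry a run of alternating T and G, marked in capitals in stretches of 30 bases for S1PR2 and PBXIP1.
S1PR2, bases 23 to 52: cTGTGTGTGTGTGTGTGTGTGTGTGTGTaa
PBXIP1, bases 18 to 47: gagaactTGTGTGTGTGTGTGTctgtctgt
The runs have 27 and 15 bases, and that of IGFBP4 has 10. The S1PR2 and PBXIP1 probes lie at chr7:15975149-15975208 and chr3:15699013-15699072 on UMD 3.1.

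The search for this feature was made after the values had been seen, so what follows is a description. The letters TGTGTGTG stand in 78 probes of the array, 0.52% of the probes, and the same letters on the other strand, CACACACA, in 27 probes, 0.18%. Of the 10 probes most correlated with TYK2, 7 carry a run of 8 or more bases, against 76 of 10209 candidate probes, and of the 100 most correlated 10 do. Excluding TYK2, 25 probes have a run of 10 or more bases, and all 25 were well above background on at least 18 arrays. Their correlation with TYK2 ran from −0.376 to 0.989 with a median of 0.563, against a median of −0.127 for probes whose longest run has 3 bases or fewer. The 51 measured probes with runs of 8 or 9 bases had a median correlation of −0.133 and a median late minus early difference of 0.05, with 7 called lower and 6 higher. All correlations share the 27 arrays and their brightness.

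The 25 probes were also lower at the late stage on balance. Their median late minus early log2 difference was −0.32, with 12 called lower and 0 higher by limma, against a median of 0.10 with 542 lower and 1010 higher among the 6330 measured probes with runs of 3 bases or fewer. The largest falls among them were those of MCAM, a cell adhesion molecule (−2.35), KANK2 (−2.15) and IGFBP4 (−2.07), all with runs of 10 bases, and S1PR2 (−1.35) had the longest run. Not every such probe was lower, since IMPAD1, with a run of 13 bases, had a difference of 0.34. The part of the repeat in the TYK2 probe in its late-stage value was not tested, and no second TYK2 probe is on the array.

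**Figure D3:**
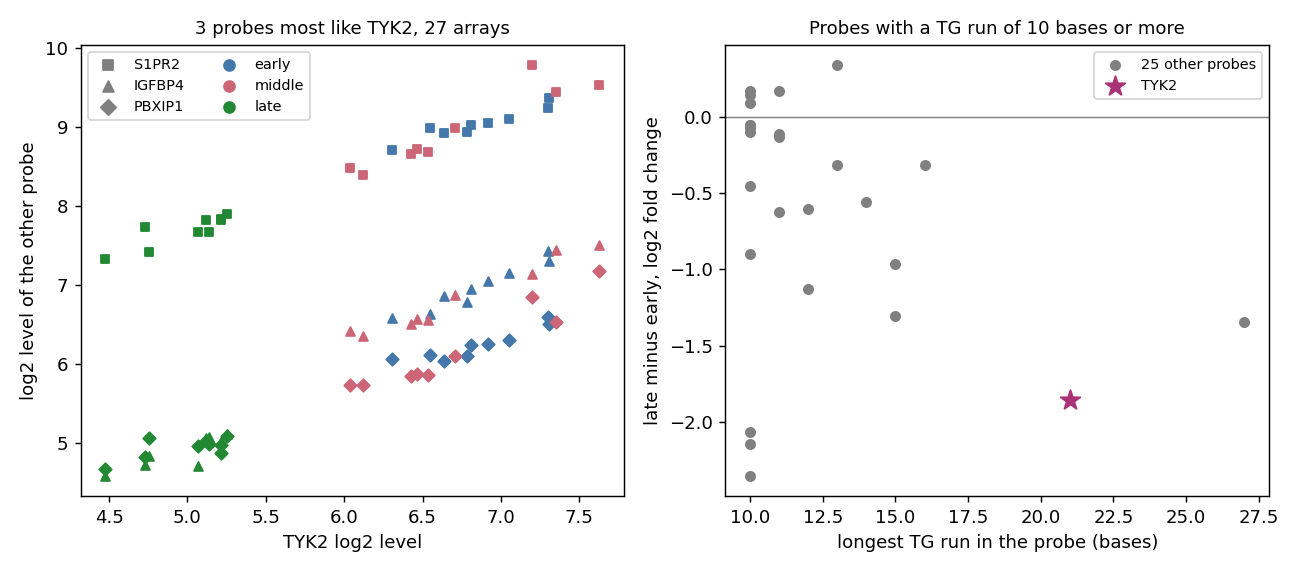
Left, log2 level of IGFBP4, S1PR2 and PBXIP1 (vertical axis) against that of TYK2 (horizontal axis) on 27 arrays, with marker shape for the gene and color for the stage. Right, late minus early log2 fold change (vertical axis) against the longest run of alternating T and G in the probe, in bases (horizontal axis), for TYK2 and the 25 other probes with a run of 10 bases or more. The late arrays lie apart at the low end for all 3 genes, and probes with a run of 10 bases spread from −2.35 to 0.17.

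Among the STAT factors, STAT3 carries IL6-type and IL10-type signals and is active in epithelial repair. The lowest, median and highest levels were 2.01, 2.59 and 2.94 at the early, 1.09, 1.85 and 2.61 at the middle and 2.38, 2.71 and 3.02 at the late stage. The 3 ranges overlapped, yet every animal was lower at the middle than at the early stage, by 0.79 on average (SE 0.152), again as a description. In the second period STAT3 rose by 0.94 (1.91-fold, SE 0.152, limma adjusted *P* = 2.57e-05), in 8 of 9 animals, with an exact sign-flip permutation *P* of 0.00781. Late minus early was 0.15 (95% interval −0.169 to 0.468, limma adjusted *P* = 0.552).

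STAT5A, which answers to prolactin, growth hormone and several interleukins, was dim. It was well above background on all 9 early and all 9 late arrays and on no middle array. The lowest, median and highest levels were −2.58, −1.95 and −1.75 at the early, −3.88, −3.03 and −2.01 at the middle and −2.38, −1.63 and −0.48 at the late stage. The late value was above the middle value in 9 of 9 animals, with a limma adjusted *P* of 5.63e-06. That test rests on middle values that were not well above background. A bound was set from the dimmest measured probes of the middle arrays. The late mean was 1.04 times this bound and the early mean 0.77 times, so the size of neither difference is read. Under normexp background correction late minus middle was −0.07 (limma adjusted *P* = 0.327), so both the call and the direction depend on how background was handled. Late minus early was 0.43 (limma adjusted *P* = 0.135).

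STAT6, the factor of IL4 and IL13 signaling, did not share the dip. Early levels spanned −0.77 to −0.04 around a median of −0.29, middle levels −0.31 to 0.91 around 0.02, and late levels −0.58 to 0.18 around −0.04. Middle minus early was 0.54 (SE 0.158) and higher in 8 of 9 animals, and with a fixed slide block it was −0.14. The median of all probes was 0.33 in that comparison, and 8 of 9 middle arrays measured STAT6 well above background. Late minus middle was −0.30 (limma adjusted *P* = 0.0952), called without animal 7 (−0.40, limma adjusted *P* = 0.0383) and with 75th percentile scaling (−0.48, limma adjusted *P* = 0.0207), and late minus early 0.24 (95% interval −0.091 to 0.571, limma adjusted *P* = 0.319).

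SOCS1, which inhibits the JAK kinases directly and restrains interferon gamma signals, was well above background on all 27 arrays. The SD between animals was 0.26 in early, 0.416 in middle and 0.539 in late biopsies. In early biopsies the level lay between 2.70 and 3.53 (median 3.1), in middle biopsies between 2.18 and 3.56 (median 3.07), and in late biopsies between 2.24 and 3.70 (median 2.84). Late minus middle was −0.18 (95% interval −0.491 to 0.134, limma adjusted *P* = 0.291) and late minus early −0.29 (95% interval −0.606 to 0.0197, limma adjusted *P* = 0.183). With cyclic loess normalization, added after the data had been seen, both passed the threshold, at −0.42 (limma adjusted *P* = 0.0254) and −0.43 (limma adjusted *P* = 0.0497).

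SOCS3, the brake on gp130 receptors and STAT3, was measured on 6 early, 3 middle and 7 late arrays. The lowest, median and highest levels were −3.40, −2.53 and −1.11 at the early, −2.85, −1.87 and −1.19 at the middle and −3.24, −2.31 and −1.70 at the late stage. The stages overlapped throughout. Late minus middle was −0.34 (limma adjusted *P* = 0.298) and late minus early 0.22 (95% interval −0.382 to 0.824, limma adjusted *P* = 0.661), which was 0.52 without animal 9 (limma adjusted *P* = 0.114). With normexp the first of these passed the threshold (−0.29, limma adjusted *P* = 0.00257).

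Between the genes themselves, JAK1 followed JAK2 (r = 0.895 over 27 arrays, 0.639 within stages) and STAT3 (0.821, and 0.463 within stages). TYK2 and STAT3 had an r of −0.188 over all arrays and of 0.823 within stages. SOCS1 and SOCS3 had values of 0.501 and 0.600. Outside the family, the levels most like JAK1 were those of LUC7L2 (r = 0.980), a splicing protein, the glycolytic enzyme PGK1 (0.980) and CLDND1 (0.979). PGK1 was well above background on all 27 arrays, with a level of 5.38 to 5.62 at the early, 1.21 to 4.29 at the middle and 5.24 to 5.83 at the late stage. LUC7L2 was so on 7 of the 9 middle arrays.

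For JAK2 the 3 most similar genes were RNF121 (0.944), EFR3A (0.938) and UBE2E1 (0.935), and for STAT3 they were LSM12 (0.915), the anion exchanger SLC4A2 (0.911) and EIF2B3 (0.909). STAT5A was followed most by TESK1 (0.875), ITGB5 (0.842) and AKAP7 (0.836). STAT6 was followed by BCLAF1 (0.843), N4BP2 (0.839) and the insulator protein CTCF (0.825). The likeness was weakest for SOCS1, whose nearest genes were SPAG4 (0.677), LHFPL4 (0.671) and LPIN2 (0.661). These values are Pearson r over 27 arrays from the same 9 animals, which share array brightness, and carry no test.

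Of 10 other STAT and SOCS family genes, 8 were on the array. Many genes named from this list and those below had the largest called rise or fall of a comparison. Their *P* comes from the values that picked them. In the second period 4 were called higher and 2 lower, with a median log2 fold change of 0.30 beside −0.28 for all probes, and in the total period 1 was higher and 0 lower. The shares of all probes were 26.7% higher and 44.8% lower, and 10.9% and 9.02%. STAT4 rose by 0.79 in the second period (limma adjusted *P* = 0.0361). SOCS5 was the gene called in the total period, higher by 0.40 (limma adjusted *P* = 0.0201), after a second-period rise of 0.52 (limma adjusted *P* = 0.000546). SOCS4 was 0.82 lower at the middle than at the early stage and rose by 0.76 in the second period (limma adjusted *P* = 0.00193). SOCS4 was well above background on 5 of 9 middle arrays and STAT4 on 6. CISH and SOCS2, feedback inhibitors of STAT5 signals, were measured on all arrays and were called in no comparison, with late minus early differences of −0.19 and 0.10.

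Of 40 receptors that signal through JAK kinases, 32 were on the array and for 22 of them all 9 arrays of at least 1 stage lay well above background. In the first period 17 were called higher and 6 lower, in the second 9 higher and 17 lower, and in the total period 4 higher and 2 lower. Over all probes the shares higher and lower were 45.3% and 21.2%, 26.7% and 44.8%, and 10.9% and 9.02% in that order. The second-period median of −0.38 was near that of all probes, −0.28. Chains of receptors that signal through JAK1 went both ways. The interferon gamma, IL10RB and IL22RA1 chains described next dipped at the middle stage, and the study names them beside JAK1 from these same arrays, so they are not independent evidence of its direction. Their second-period rises share the middle arrays with that naming and are given as a description with no test. Other such chains, named here after their values were seen, were higher at the middle stage and fell in the second period. The falls were 1.07 for IL11RA, 0.99 for LIFR, 0.83 for IL2RG, 0.80 for IL13RA1 and 0.60 for IL4R, given as a description with no test.

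IL10RB, the shared TYK2-binding chain of the IL10, IL22 and interferon lambda receptors, had levels of 2.47 to 2.80 (median 2.68) in early, −1.87 to 1.36 (median 0.81) in middle and 2.57 to 3.26 (median 2.87) in late biopsies. Early and late levels did not overlap the middle ones, of which 8 of 9 were well above background. It rose by 2.32 in the second period. IFNGR1 and IFNGR2, the 2 chains of the interferon gamma receptor, rose by 1.42 and 1.13 after middle minus early differences of −1.47 and −1.11. All 27 arrays measured both, and their late and early means differed by −0.05 and 0.01.

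IL22RA1, which gives epithelial cells their response to IL22, rose by 1.23 in the second period, and its ranges overlapped at all stages. IL6ST, or gp130, the shared chain of IL6-type receptors, was called in no comparison, with a second-period difference of 0.06. OSMR, the oncostatin M receptor, rose by 1.03 in the second period (limma adjusted *P* = 0.000104) and by 0.75 in the total period (limma adjusted *P* = 0.0101). CNTFR, a receptor chain that pairs with gp130, was 1.19 higher at the middle than at the early stage and 0.92 higher in late than in early biopsies (limma adjusted *P* = 0.00058).

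IFNAR2, the interferon alpha receptor chain bound by JAK1, had a late fall. Early levels spanned 0.08 to 0.97 around a median of 0.61, middle levels 0.14 to 1.51 around 1.01, and late levels −1.18 to −0.22 around −0.54. The late levels lay below all others, and it fell by 1.65 in the second period (limma adjusted *P* = 1e-09) and by 1.22 in the total period (limma adjusted *P* = 3.77e-07).

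**Figure D4:**
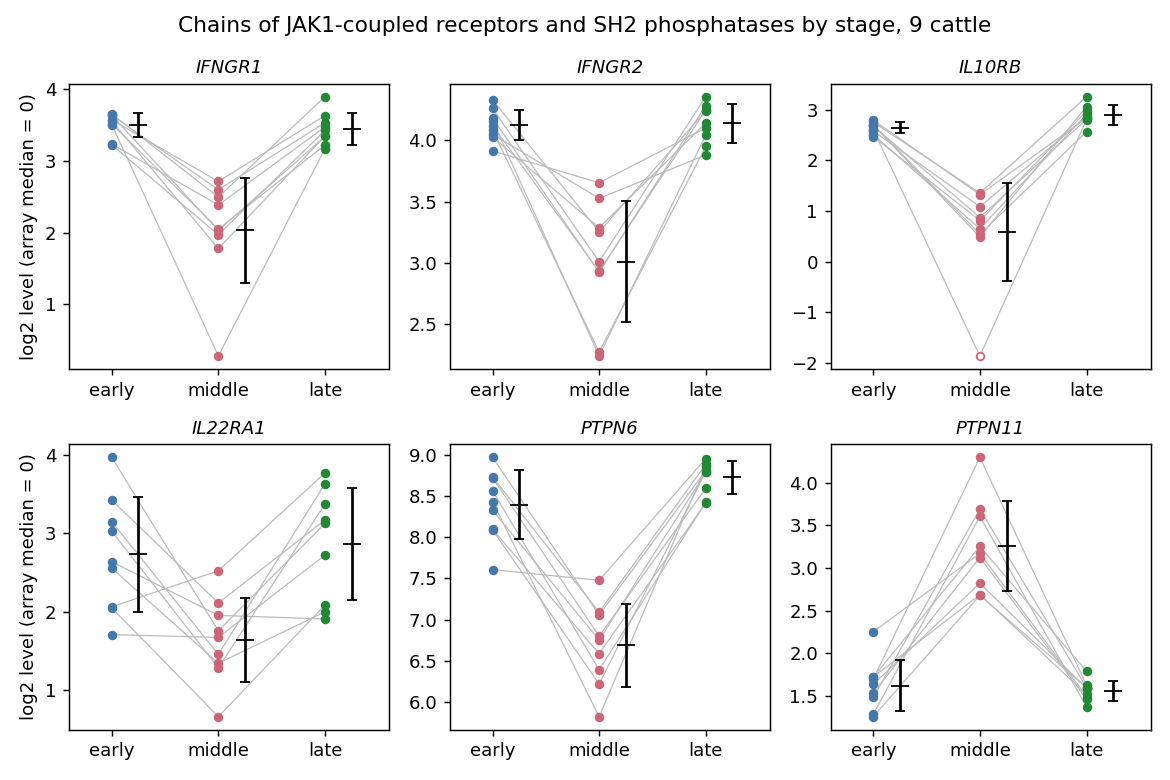
Log2 level relative to the array median (vertical axis, 1 scale per gene) by stage for 4 chains of receptors that signal through JAK1 and for the phosphatases PTPN6 and PTPN11. Points are arrays, gray lines join the arrays of 1 animal, the open point was not well above background, and bars give mean ± SD over 9 animals. IFNGR1, IFNGR2, IL10RB and PTPN6 are lowest at the middle stage in all animals, PTPN11 is highest there, and IL22RA1 overlaps between stages.

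Ligands were mostly too dim to follow. Of 33 on the array, 4 had all 9 arrays of a stage well above background. The counts for the list, with 24 higher and 0 lower in the first period and 1 higher and 22 lower in the second, rest on probes near background on the dimmer middle arrays. All probes had 45.3% higher and 21.2% lower, and 26.7% and 44.8%, in these periods. IL23A, a subunit of the TYK2-dependent cytokine IL23, fell by 1.65 in the second period (limma adjusted *P* = 1.45e-08) and by 0.75 in the total period (limma adjusted *P* = 0.00107). IL11, well above background on 6 of 9 middle arrays, rose by 0.78 in the second period (limma adjusted *P* = 0.0054). IL10, an anti-inflammatory cytokine, was higher by 0.46 in the total period (limma adjusted *P* = 0.033).

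Of 20 other inhibitors and adaptors, 18 were on the array. In the second period 4 were called higher and 7 lower, beside 26.7% and 44.8% of all probes. In the total period 0 were higher and 2 lower, beside 10.9% and 9.02% of all probes. The 2 SH2 phosphatases moved in opposite directions. PTPN6 (SHP-1), which dephosphorylates JAK kinases, ran from 7.61 to 8.97 (median 8.43) in early, 5.83 to 7.48 (median 6.75) in middle and 8.41 to 8.95 (median 8.79) in late biopsies, and it rose by 2.03 in the second period (limma adjusted *P* = 2.38e-08). PTPN11 (SHP-2), which links receptors to the Ras pathway, ran from 1.25 to 2.25, from 2.68 to 4.30 and from 1.37 to 1.79 at the same stages, and it fell by 1.70. The study names PTPN11 from these same arrays, in the first period beside JAK1. Its fall is therefore given as a description with no test.

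The middle range of each phosphatase lay outside both its other ranges. PTPN2, a phosphatase of JAK1 and STAT3, had a second-period difference of 0.36 (limma adjusted *P* = 0.18). The 2 genes called in the total period were USP18, an inhibitor of interferon alpha receptor signaling, which fell by 0.56 (limma adjusted *P* = 0.0359), and PTPRC, or CD45, a phosphatase of leukocytes, which fell by 0.74 (limma adjusted *P* = 0.0261). USP18 was well above background on 2 of 9 middle arrays. PTPRC is also one of the leukocyte markers given beside JAK3.

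Of 30 STAT target genes, 28 were on the array, with 10 higher and 7 lower in the second period and 4 higher and 2 lower in the total period. All probes had 26.7% higher and 44.8% lower in the second period and 10.9% and 9.02% in the total period. ARG1, an arginase induced by STAT6 and STAT3, rose by 2.48 in the second period (limma adjusted *P* = 5.56e-07) and by 1.08 in the total period (limma adjusted *P* = 0.0116). CEBPB, a transcription factor induced by STAT3, was lower at the late stage than at both others, given as a description with no test. It was well above background on 9 early, 6 middle and 2 late arrays. It was named through its early arrays, and the size of neither fall is read. CCND1, or cyclin D1, was 1.04 higher at the middle than at the early stage. BCL3, a cofactor of NF-kappa B, was well above background on all early and late arrays and on no middle array, so no fold is given.

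Epithelial markers dipped with JAK1, JAK2 and STAT3. Of the 23, 4 were called higher and 13 lower in the first period, beside 45.3% and 21.2% of all probes. In the second period 10 of these markers were higher and 4 lower, beside 26.7% and 44.8% of all probes. The mean level of the epithelial markers per array ran from 4.71 to 5.22 at the early, from 3.88 to 5.16 at the middle and from 4.81 to 5.26 at the late stage. Smooth muscle markers ran the other way, from 0.678 to 2.56, from 1.01 to 3.36 and from 0.595 to 1.57. The part of tissue makeup in the values of the 9 genes was not tested.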

How the data were processed

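RNA of 27 RE biopsies was labeled with cyanine 3 and measured on one-color Agilent arrays. The authors deposited scanner output in which the processed intensity of a spot is its signal after background subtraction, on a linear scale, and the flags deposited beside it score each spot as 0 or 1 for being well above background or an outlier. The file headers name Feature Extraction 11.0.1.1, and the submitters' processing notes name version 9.5. The authors also deposited a log2 table, whose columns have medians of −3.07 to −2.6 and match the log2 processed signal after the 75th percentile of each array is taken off. That table served as an alternative.

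Leaving out controls, 15110 of 15646 spots remained and held 15008 probes. Spots flagged as outliers were left missing, log2 processed intensity was set relative to the array median, and spots of 1 probe were averaged. limma 3.58.1 in R 4.3.3, with statmod 1.5.0, fitted stage means with a block for each animal, and *P* was adjusted by Benjamini-Hochberg over all probes. The same animals were sampled at each stage, and once stage means were removed, arrays correlated by 0.158 on average within animals (−0.151 to 0.461) and by −0.0197 between animals. Single genes were also tested by exact sign flips over the 9 animals, two-sided, with a smallest possible *P* of 0.0039. Where no array of a stage measured a gene, the mean of the brighter stage is given over a bound. On each dimmer array that bound is the larger of its lowest well-measured signal and the probe's own value.

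The 9 genes and the lists were chosen with earlier results of these data known. All 9 symbols matched the RefSeq gene table, 6 of them by accession too. Named besides them are, per list and comparison, the called gene with the largest rise and the largest fall among those measured on all 9 arrays of a stage, the receptor chains and inhibitors IFNGR1, IFNGR2, IL10RB, IL22RA1, IL6ST, OSMR, CISH, SOCS2, PTPN2, PTPN6 and PTPN11, and, for genes measured on at least 18 arrays, the 3 genes of highest correlation. The probes with runs of T and G were chosen after their values were seen. Marker lists for fibroblasts, endothelium, red blood cells, neutrophils and hepatocytes had total-period counts of 1 higher and 1 lower of 11, 0 and 3 of 10, 1 and 1 of 7, 0 and 0 of 10, and 1 and 3 of 10. Over all probes 10.9% were higher and 9.02% lower in that period. Alternatives changed the scaling (75th percentile, quantile normalization), the background (normexp with an offset of 50), the probes (dim ones removed, outlier spots kept), the source (the log2 table), the blocks (none for the animal, a random or a fixed one for the slide, or slide 2 by itself), the test (the methods' t-test, only 2 stages fitted) and the animals (each left out). The arrays of the first scan day and cyclic loess were chosen after seeing the data. The procedure was tested on simulated data. The number of arrays limits the precision. Results for some single items named by these rules are not reported here.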

Additional observations from a re-analysis of the deposited data

Results flagged for a closer look

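One value stood apart from the others of its stage. The early-stage SOCS3 level of animal 9 was −1.11, while the other 8 early levels ran from −3.40 to −2.35. Its gap to the nearest value took a share of 0.542 of the whole range, above Dixon's 95% critical value of 0.493 for 9 samples. It was the 1 such value in 27 groups of 9 arrays, where chance gives about 1 in 20 groups. The early array of animal 9 is also the only early array on slide 2, and the part of the slide in this value was not tested.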

How the results depend on the processing

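The number of the 9 genes called in the first period was 5, and it became 8 with normexp, 0 with a fixed slide block (limma, 1 of the 9 at an unadjusted *P* below 0.05), 0 on slide 2 alone (2 of the 9 unadjusted) and 2 with cyclic loess, which kept 4 of the 9. In the second period the count was 6 and stayed within 1.5 times of it under every alternative run. In the total period it was 2, and it became 1 with normexp, 1 with dim probes removed and 1 with a random slide block. Leaving out each animal gave 5 to 6, 6 to 7 and 2 to 2 calls. Without the animal block the counts were 5, 6 and 2, and the pairing changed no call. Called values that changed sign were STAT5A in the first period with normexp (0.11), STAT6 in the first period with a fixed slide block (−0.14), JAK3 in the second period with quantile normalization (0.12) and STAT5A in the second period with normexp (−0.0663), and the cause was not tested. Both sign changes of the second period also lost their calls (limma adjusted *P* = 0.715 for JAK3 and 0.327 for STAT5A). Apart from these, single-gene values of the second and total periods gained a call in 9 cases and lost one in 3. In the first period 11 values, which carry no test, moved by more than the spread between animals. Uncalled values changed sign too, among them SOCS1 in the second period with normexp (0.29) and SOCS3 there with quantile normalization (0.33). STAT6 in the second period was called without animal 7 (−0.40) and with 75th percentile scaling (−0.48). Over all probes, the count of 9986 in the first period fell to 1243 with a fixed slide block and to 7 on slide 2 alone, and that of 2995 in the total period fell to 248 with a random slide block. Higher calls made up 51.6% of first-period calls with quantile normalization and 50.2% with dim probes removed, 51% and 57.8% in the second period, and 33.7% in the total period with 75th percentile scaling. A fixed slide block could not be fitted for comparisons with the late stage. The dim middle arrays limit what can be said of JAK3, STAT5A and SOCS3.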
